A study of Mus musculus with 4 samples.

Results

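The TRIM family was followed across 4 sorted subsets of splenic dendritic cells (DCs) of the mouse. Its members were taken as every gene whose symbol in the array annotation begins with Trim and a digit, which gave 58 genes, carried by 111 probe sets, among 18193 named genes. The subsets were CD8+CX3CR1+, CD8+CX3CR1-, CD4+ and DN, the last a common short form for cells that lack both CD4 and CD8. Each was profiled on 1 Affymetrix mouse expression array, and the name of a subset stands below for its array. All 4 came from Cx3cr1gfp/+ mice on the C57BL/6 background, in which green fluorescent protein replaces 1 copy of the chemokine receptor gene Cx3cr1 and all have a minus sign in the label field for BMP4 treatment. The cells were enriched for CD11c after collagenase D digestion and sorted for high CD11c. The age of the mice, their number, any pooling and the sort gates were not found in the labels. With 1 array per subset there is no replicate check and no test, so every difference given describes 2 arrays.

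TRIM proteins share an N-terminal tripartite motif, a RING finger followed by B-boxes and a coiled coil, and most act as E3 ubiquitin ligases. They are sorted into classes by what follows this motif. Many with a C-terminal PRY-SPRY domain take part in defence against viruses or tune the signals of nucleic acid sensors and Toll-like receptors, and a number of them are induced by interferon. Others are chromatin cofactors, cytoskeletal proteins or proteins of muscle, brain and germ cells.

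Each value is a linear MAS5 signal. The floor for calling a gene detected was 55.7, the 90th percentile over 127 probe sets of genes that DCs should not use (olfactory and taste receptors, hair keratin-associated proteins). Where 1 of a pair lay below the floor the fold is a lower bound, written "at least", and where both did no fold is given. Signals of different probe sets are not set against each other, since each has its own brightness. In sorted cells measured in bulk, a transcript present in fewer cells and one present at a lower level per cell cannot be told apart.

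Groups were taken from the sample titles, and the transcripts of Cd8a, Cx3cr1 and Cd4 were highest in the subsets titled for them. Cd8a was 2530.2 in CD8+CX3CR1+ DCs and 4742.1 in CD8+CX3CR1- DCs, against 18.7 in CD4+ DCs and 129.5 in DN DCs. Cx3cr1 was 893.7, 97.3, 275 and 258.4 and Cd4 was 93.3, 21.1, 563.5 and 93.9 in the same order, while Itgax, the CD11c chain, lay between 3271.3 and 6415. The label field "dendritic cell" names another subset than the title on 2 arrays, those whose titles read CD8+CX3CR1- and DN. CD4+ DCs had the highest Gapdh 3'/5' ratio, a measure that increases as RNA integrity is lost, at 11.8 against 7.56 to 8.98 on the other arrays. They also had the largest share of probe sets above the floor (47.6%, against 41.0% to 42.5%). Of the markers of other cells, 0 of 4 erythroid and 2 of 6 neutrophil genes lay above the floor on any array, as did 3 of 5 for T cells, 7 of 8 for B cells, 5 of 6 for NK cells, 5 of 6 for monocytes and 10 of 10 for red pulp macrophages. Cd79a (B cells), Cd3g (T cells) and Ncr1 (NK cells) were under the floor on all 4 arrays. The summed signal of the T cell, B cell, NK cell, monocyte and macrophage lists was lowest in CD8+CX3CR1- DCs, but bright genes carry several of these sums. Klrd1 gave 3722.9 of the 4029.4 of the NK cell list and Csf1r 11291.1 of the 16010.7 of the monocyte list in CD8+CX3CR1+ DCs. Other genes of the lists were highest in CD8+CX3CR1- DCs, namely Ms4a1 (445.8), Vcam1 (513.3), Hmox1 (71.6) and Cd14 (1088.6). For the macrophage list it was 2555.6, 998.8, 4299.9 and 2207.7 in CD8+CX3CR1+, CD8+CX3CR1-, CD4+ and DN DCs. The list for plasmacytoid DCs, of which 8 of 9 genes were detected, was highest in CD8+CX3CR1+ DCs, with sums of 7921.7, 1006.8, 1656.3 and 2759.8 in the same order. The part of these lists and of the Gapdh ratio in the results was not tested.

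Of the 58 TRIM genes, 41 (70.7%) passed the floor on 1 or more arrays, against 69.3% of all named genes. On all 4 arrays 25 (43.1%) lay above it, against 42.7% of all named genes. The family was largely even across the subsets. The highest array exceeded the lowest by at least 2-fold for 12 of the 41 members, which is 29.3%, and 28.4% of all 12608 detected genes did so. At 4-fold 1 member passed, Trim26, beside 4.66% of all detected genes. The median fold between highest and lowest array was 1.59 for the TRIM genes and 1.61 for all detected genes. These shares are near each other, so these counts single out no property of the family. The 12 members were Trim3, Trim5, Trim7, Trim14, Trim26, Trim30d, Trim35, Trim36, Trim41, Trim56, Trim62 and Trim68. Without CD4+ DCs 7 members passed 2-fold, beside 18.9% of all detected genes, and without CD8+CX3CR1- DCs 7 did, beside 15.5%, so the count dropped for the family as it did for all genes.

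**Figure D1:**
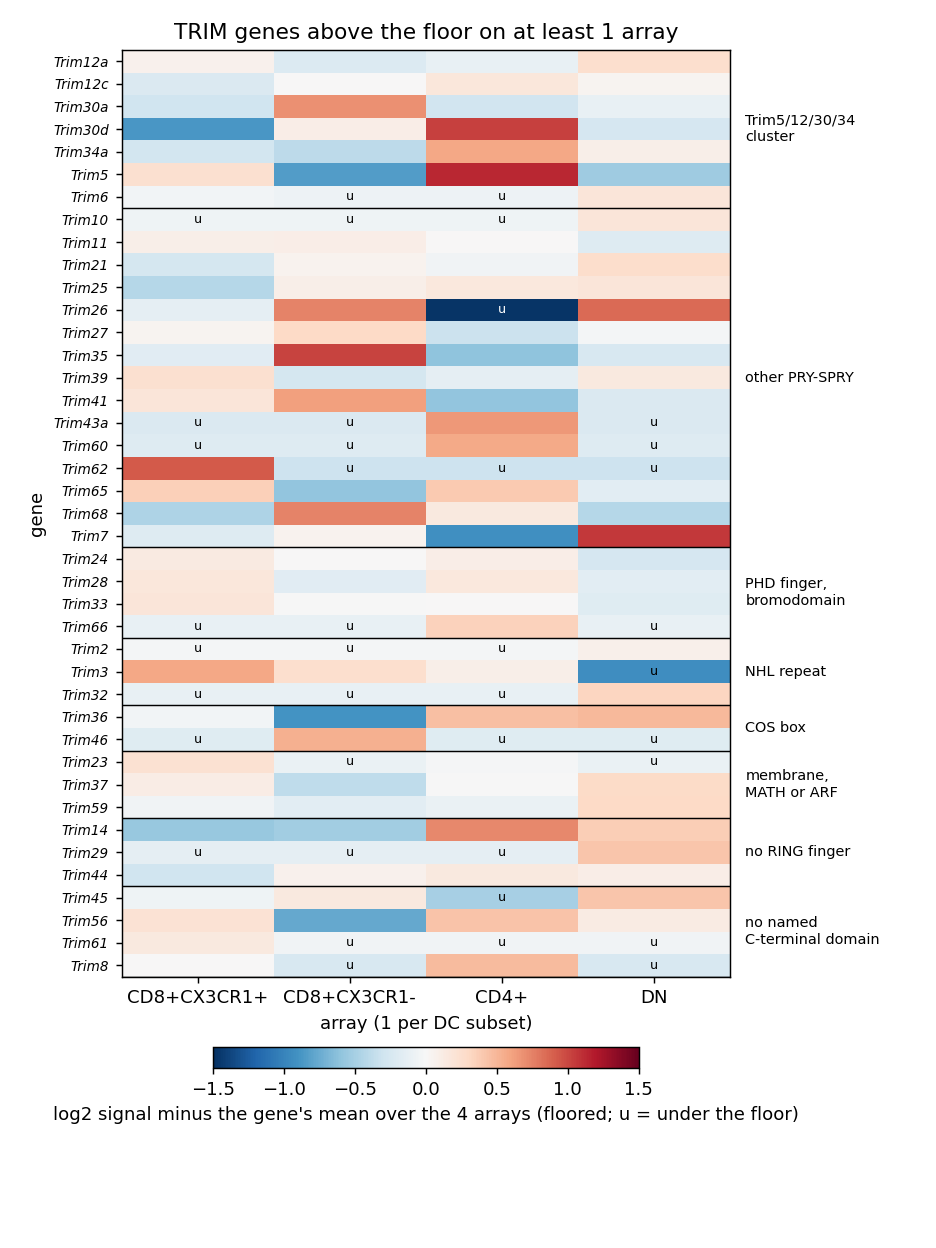
Each row is 1 of the 41 detected TRIM genes, grouped by protein class, and each column is 1 array. Colour is the log2 signal, with values raised to the floor of 55.7, minus the gene's mean over the 4 arrays, and u marks a value under the floor. Trim35 and Trim30a are highest in CD8+CX3CR1- DCs, Trim14 and Trim34a in CD4+ DCs, and the chromatin cofactors are nearly even at the probe sets used.

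Among the differences of at least 2-fold, those of Trim35 had the most support from further probe sets. Trim35 is a PRY-SPRY ubiquitin ligase first described in mouse as a gene that changes during a switch between blood lineages (Hls5). Its signal was 1307.5 in CD8+CX3CR1+ DCs, 2978.9 in CD8+CX3CR1- DCs, 971.2 in CD4+ DCs and 1241.2 in DN DCs. CD8+CX3CR1- DCs thus stood above the other 3, which lay close together. CD8+CX3CR1+ DCs were 2.28-fold lower than CD8+CX3CR1- DCs, which were 3.07-fold higher than CD4+ DCs and 2.40-fold higher than DN DCs. A further probe set of Trim35 gave 127.5, 330.9, 31.2 and 87.1 in the same order, with log2 differences of -1.38, at least 2.57 and 1.93 for these 3 pairs. The third probe set was under the floor on every array. When it entered an average over all probe sets, the excess in CD8+CX3CR1- DCs became 0.36 (log2) over CD8+CX3CR1+ DCs, 1.30 over CD4+ DCs and 0.58 over DN DCs. Trim35 was highest on the array where the T cell, B cell, NK cell, monocyte and macrophage lists had their lowest sums. The neutrophil list did not, with 218.9 in CD8+CX3CR1- DCs against 126.5 in DN DCs. Any part of these lists in the Trim35 values was not tested.

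Over the 6 pairs of arrays the TRIM genes gave 28 differences of at least 2-fold at the probe sets that represent them. Among these, Trim35 was the only gene in which a further probe set also passed 2-fold with the same sign. Genes under 2-fold at the representative probe set, such as Trim30a, were not counted here, whatever their further probe sets gave. Of these 28 differences, 14 could be set against a further probe set above the floor, and in 7 every such probe set had the same sign. Of the 7, 3 were those of Trim35, 2 those of Trim14, 1 that of Trim30d between CD8+CX3CR1+ and CD4+ DCs and 1 that of Trim36 between CD8+CX3CR1- and CD4+ DCs. The further probe set of Trim14 reached the floor in CD4+ DCs alone (56.1), so its log2 difference was -0.01 in both cases and adds little. Probe sets of the same gene scattered around their mean log2 difference with a standard deviation whose root mean square was 0.26 to 0.56, depending on the pair. This scatter says nothing of the variation from mouse to mouse or from sort to sort.

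**Figure D2:**
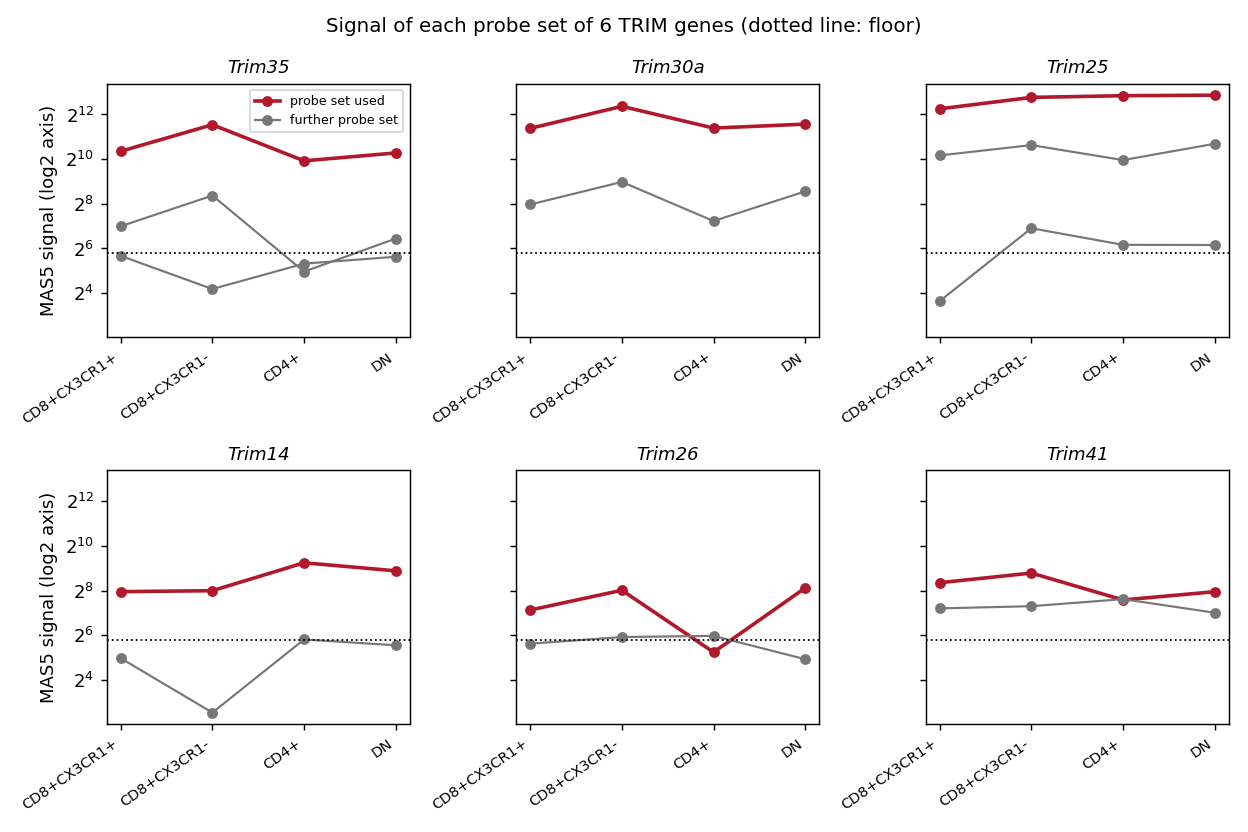
Each panel plots the MAS5 signal (log2 axis) of every probe set of 1 TRIM gene on the 4 arrays, with the probe set that represents the gene in red, further ones in grey and the floor of 55.7 as a dotted line. The probe sets of Trim30a, and the 2 of Trim35 that pass the floor, peak in CD8+CX3CR1- DCs, whereas the further probe sets of Trim26 and Trim41 do not follow the red line.

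Pair by pair, the counts of TRIM genes were near those of all detected genes. Between CD8+CX3CR1+ and CD8+CX3CR1- DCs 4 of 41 members passed 2-fold, beside 13.5% of all genes. Of these, 2 were higher in CD8+CX3CR1+ DCs (7.72% of all genes were) and 2 lower (5.81%). Between CD8+CX3CR1+ and CD4+ DCs 4 passed (9.36% of all), 2 of them higher (4.47%) and 2 lower (4.89%). Between CD8+CX3CR1+ and DN DCs 3 passed (5.91%), 2 higher (2.97%) and 1 lower (2.93%). CD8+CX3CR1- and CD4+ DCs had the most, 7 (15.9%), of which 3 were higher in CD8+CX3CR1- DCs (6.78%) and 4 lower (9.11%). Between CD8+CX3CR1- and DN DCs 5 passed (10.9%), 3 higher (4.75%) and 2 lower (6.17%). Between CD4+ and DN DCs 5 passed (7.57%), 3 higher (4.34%) and 2 lower (3.23%). The median log2 difference of the 41 members lay between -0.05 and 0 in all 6 pairs, and that of all detected genes between -0.01 and 0.01. At 4-fold Trim26 passed between CD8+CX3CR1- and CD4+ DCs (2.98% of all genes did) and between CD4+ and DN DCs (0.254%). No member passed 4-fold between CD8+CX3CR1+ DCs and CD8+CX3CR1- (2.82%), CD4+ (0.769%) or DN DCs (0.412%), or between CD8+CX3CR1- and DN DCs (2.02%).

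**Figure D3:**
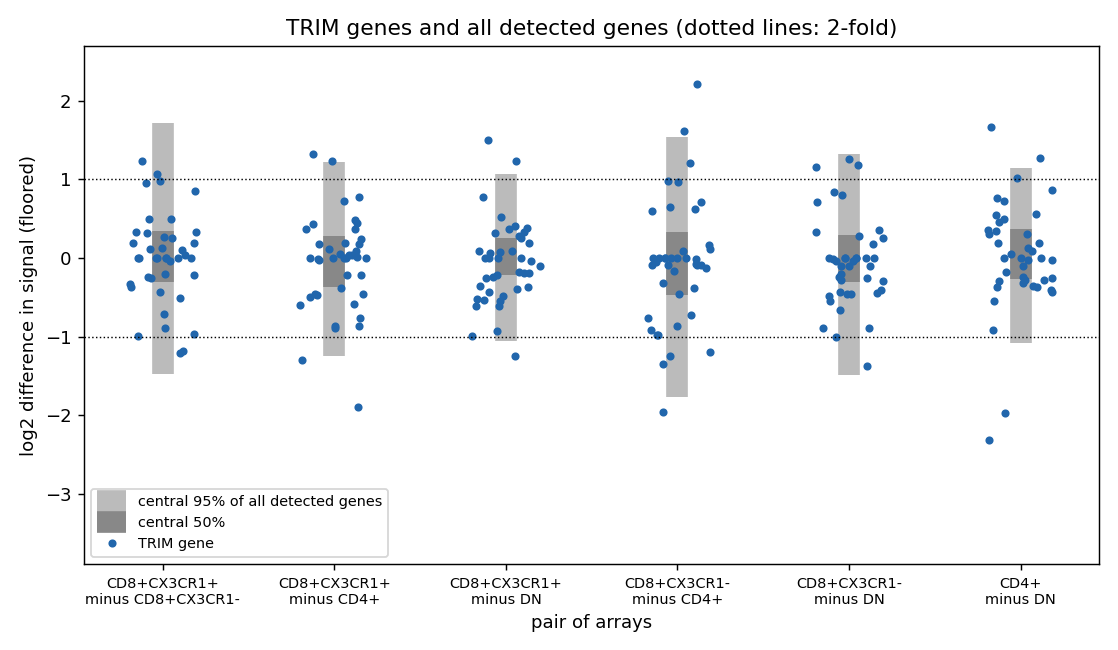
For each of the 6 pairs of arrays, points give the log2 difference in floored signal of the 41 detected TRIM genes, and grey bars give the central 95% and 50% of all 12608 detected genes. Most TRIM genes lie between the dotted lines at 2-fold, with Trim26 the furthest out, at 2.22 and -2.32.

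The PRY-SPRY genes of the Trim5, Trim12, Trim30 and Trim34 cluster form the group of mouse TRIM genes related to primate TRIM5, which binds and disarms the capsids of retroviruses. In the GRCm38.p6 annotation Trim6, Trim34a, Trim5, Trim12a, Trim34b and Trim12c follow one another on chromosome 7, and so do Trim30b, Trim30c, Trim30a and Trim30d. Of these, 7 had a probe set of their own, and all 7 lay above the floor. The copies are so alike that the signal of a probe set may come from several of them, so each value is best taken as that of the probe set.

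A short sequence read by interferon-activated transcription factors, the interferon-stimulated response element (ISRE), was looked for in the promoters because many of these genes are known interferon targets. Its core was searched as GAAA, any 2 bases and GAAA again, on both strands, in RefSeq promoter windows (GRCm38.p6). Each window holds 250 bases before and 50 after a start, which was the outer edge of the annotated gene in 26 of 61 windows of TRIM genes. Some genes have several windows, and a gene counted where any of them held the core. A window was given for 47 of the 58 TRIM genes, the others being Trim3, Trim8, Trim11, Trim14, Trim16, Trim17, Trim29, Trim33, Trim35, Trim36 and Trim65. Of the 32 detected members with a window, 9 held the core (28.1%), namely Trim2, Trim5, Trim12a, Trim12c, Trim21, Trim26, Trim30a, Trim30d and Trim34a. Among all detected genes with a window 374 of 10203 did (3.67%), and among all 27025 genes with a window 1079 did (3.99%). Of the 9, 6 lie in the chromosome 7 cluster and share ancestry, so they are not independent cases. The stretches of 30 bases around it are shown for the chromosome 7 cluster and for Trim21 and Trim26, since they carry what these members share. Each is on the strand of its gene, 5′ to 3′, with capitals for the core, which reads TTTC, 2 bases, TTTC where the match lies on the other strand.
Trim5 (chr7:104288136-104288165, minus strand): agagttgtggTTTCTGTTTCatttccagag
Trim12a (chr7:104315466-104315495, minus strand): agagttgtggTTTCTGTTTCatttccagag
Trim12c (chr7:104353359-104353388, minus strand): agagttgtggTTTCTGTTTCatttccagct
Trim30a (chr7:104465210-104465239, minus strand): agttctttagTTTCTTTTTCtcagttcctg
Trim30d (chr7:104507871-104507900, minus strand): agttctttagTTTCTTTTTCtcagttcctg
Trim34a (chr7:104244457-104244486, plus strand): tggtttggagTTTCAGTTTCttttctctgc
Trim21 (chr7:102565447-102565476, minus strand): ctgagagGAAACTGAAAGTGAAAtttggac
Trim26 (chr17:36836979-36837008, plus strand): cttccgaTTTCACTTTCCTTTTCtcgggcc

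In Trim21 and Trim26 the capitals span 2 overlapping matches. The stretches of Trim5 and Trim12a were identical over all 30 bases, as were those of Trim30a and Trim30d, and Trim12c matched Trim5 at 28 of 30. In Trim5, Trim12a and Trim12c the core overlapped a match to GGAA, any 2 bases and GAAA, the composite site of Ets and IRF factors. Anywhere in a window, 5 of 32 detected members held this composite (15.6%), beside 3.01% of all detected genes with a window. Besides these genes of the chromosome 7 cluster, which are not independent cases, they were Trim25 and Trim44. How often the composite overlaps the core among all genes was not computed. The place of the core, counted from the start that the window was built on, varied. Before the start lay that of the outer Trim30a start (-36 to -27), Trim30d (-41 to -32), Trim5 (-49 to -40), Trim12c (-29 to -20) and Trim26 (-160 to -145). After the start lay that of Trim12a and Trim34a (each 11 to 20), Trim21 (14 to 29), Trim2 (29 to 38) and the inner Trim30a start (3 to 12). A match is a description of letters and not a bound site.

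These 9 genes did not share a pattern over the arrays. Trim30a, which in mouse limits NF-kB signalling downstream of Toll-like receptors by bringing about the loss of TAB2 and TAB3, had 2660.1 in CD8+CX3CR1+ DCs, 5275.2 in CD8+CX3CR1- DCs, 2684.9 in CD4+ DCs and 3034.6 in DN DCs. CD8+CX3CR1- DCs alone stood high, and the other 3 lay close together. CD8+CX3CR1+ DCs were 1.98-fold lower than CD8+CX3CR1- DCs, which were 1.96-fold higher than CD4+ DCs and 1.74-fold higher than DN DCs, all under 2-fold. The other probe set of Trim30a gave 250.7, 504.8, 150.1 and 376.7 in the same order, again highest in CD8+CX3CR1- DCs. There the remaining arrays did not lie close together, with DN DCs well above CD4+ DCs.

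Trim30d, with the same 30 bases around the core, had 78.8, 154.6, 292.5 and 120.7 in CD8+CX3CR1+, CD8+CX3CR1-, CD4+ and DN DCs. Here CD4+ DCs were highest, with CD8+CX3CR1+ DCs 3.71-fold lower than these and CD4+ DCs 2.42-fold higher than DN DCs. Its further probe set went otherwise, with 96.9, 158.3, 132.1 and 171.9 in the same order and its highest value in DN DCs.

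Trim5 had 158.5, 75.5, 295.1 and 92.6 in that order. Its highest value was in CD4+ DCs, which were 3.19-fold higher than DN DCs. CD8+CX3CR1+ DCs were 2.10-fold higher than CD8+CX3CR1- DCs, which were 3.91-fold lower than CD4+ DCs. Trim5 rests on 1 probe set. Trim12a, whose stretch is identical to that of Trim5, was nearly even at 789.9, 653.7, 697 and 899.4, as was Trim12c, a ligase of the TRAF6 pathway in mouse, at 205.7, 239.1, 268.1 and 245.5.

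Trim34a had 377.9 in CD8+CX3CR1+ DCs, 349.7 in CD8+CX3CR1- DCs, 687.7 in CD4+ DCs and 486.9 in DN DCs. It was highest in CD4+ DCs, and CD8+CX3CR1- DCs were 1.97-fold lower than these. Trim6, which has no match to the core, lay within reach of the floor, with 57.1 and 66.4 in CD8+CX3CR1+ and DN DCs and values under the floor on the other arrays.

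The upstream windows of Trim30a (outer start) and Trim5 are shown as the pair with opposite order in CD8+CX3CR1- and CD4+ DCs. The ISRE core is in capitals and the start of the window lies directly after the last base.
Trim30a (chr7:104465194-104465443, minus strand): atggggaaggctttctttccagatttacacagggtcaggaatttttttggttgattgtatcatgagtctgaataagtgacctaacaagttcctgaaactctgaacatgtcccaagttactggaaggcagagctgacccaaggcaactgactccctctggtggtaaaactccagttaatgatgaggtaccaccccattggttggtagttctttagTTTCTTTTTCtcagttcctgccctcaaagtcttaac
Trim5 (chr7:104288107-104288356, minus strand): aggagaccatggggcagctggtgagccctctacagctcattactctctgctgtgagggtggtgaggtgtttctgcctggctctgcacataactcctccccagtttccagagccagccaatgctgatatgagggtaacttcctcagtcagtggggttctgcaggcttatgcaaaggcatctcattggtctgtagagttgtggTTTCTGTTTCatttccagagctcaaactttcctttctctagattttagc

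The other interferon-stimulated genes followed an order that few of these TRIM genes shared. Of 17 genes on this list, 12 were at least 2-fold lower in CD8+CX3CR1- DCs than in CD4+ DCs and 2 higher, beside 9.11% and 6.78% of all detected genes. The list's median log2 difference was -1.89, beside -0.01 for all detected genes. Ifit3, an antiviral RNA-binding protein gene, had 40.8 in CD8+CX3CR1- DCs against 1133.2 in CD4+ DCs. Oas1a, a synthetase that activates RNase L, had 110 against 1216.2 on these arrays. Of the 9 TRIM genes with the core, 1, Trim5, was at least 2-fold lower in CD8+CX3CR1- DCs than in CD4+ DCs and 1, Trim26, was higher. Of the 374 detected genes with the core, 14.7% were at least 2-fold lower and 6.15% higher in this pair, against 8.98% and 6.68% of all detected genes with a window. CD4+ DCs are also those with the highest Gapdh 3'/5' ratio, whose part was not tested. Between CD8+CX3CR1- and DN DCs 11 of the 17 genes were at least 2-fold lower in CD8+CX3CR1- DCs, beside 6.17% of all detected genes.

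**Figure D4:**
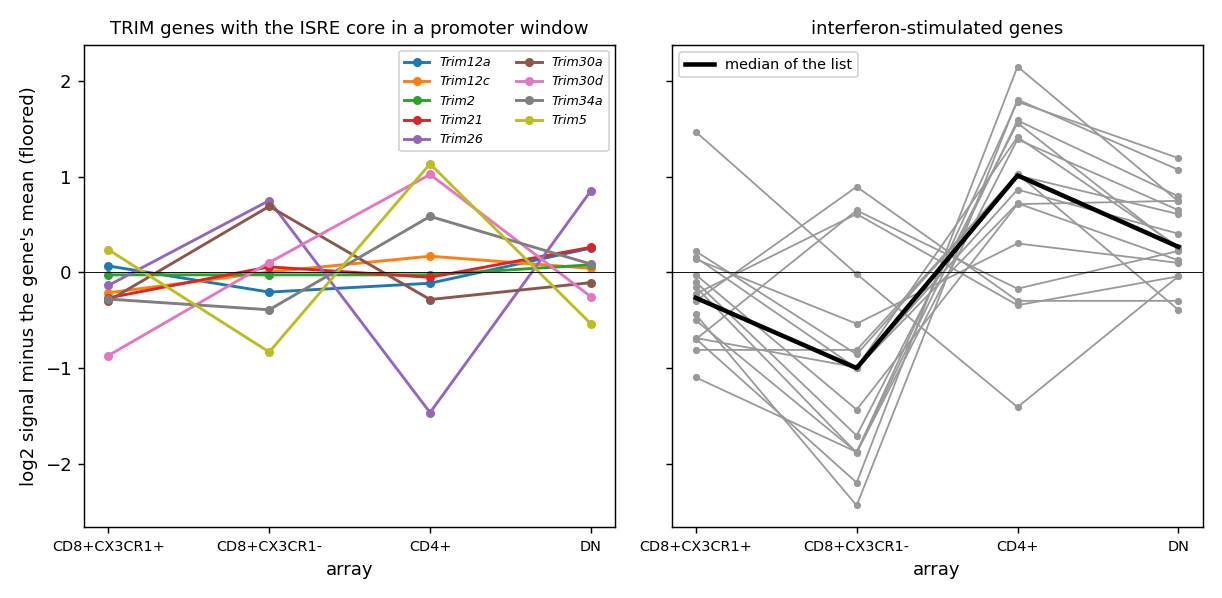
Lines give the log2 signal, floored and minus the gene's mean over the 4 arrays, for the 9 TRIM genes with the ISRE core in a promoter window (left) and for 17 interferon-stimulated genes with their median in black (right). The median of the list is lowest in CD8+CX3CR1- DCs and highest in CD4+ DCs, while Trim30a and Trim26 run the other way between these arrays and Trim5, Trim30d and Trim34a go with the list.

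Of 21 further PRY-SPRY genes on the platform 15 were detected, 10 of them on all 4 arrays, and 6 passed 2-fold between highest and lowest array, beside 28.4% of all detected genes. Trim25, which ubiquitinates the RNA sensor RIG-I and is itself induced by interferon, had a bright probe set with 4877.6 in CD8+CX3CR1+ DCs, 6956.5 in CD8+CX3CR1- DCs, 7332.5 in CD4+ DCs and 7454.6 in DN DCs. It was lowest in CD8+CX3CR1+ DCs, by 1.43-fold to 1.53-fold, while the other 3 arrays were alike. A further probe set gave 1149.2, 1582.6, 994.7 and 1651.3, with CD4+ DCs the lowest.

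Trim21, the cytosolic receptor for antibody bound to virus, was nearly even at 326.7, 409.1, 379.2 and 471.5 in CD8+CX3CR1+, CD8+CX3CR1-, CD4+ and DN DCs. Trim27, which ubiquitinates components of endosomal sorting, had 1278.8, 1527.3, 993.1 and 1219.2 in the same order. Neither passed 2-fold. Trim11, a ligase of protein quality control, lay between 432.6 and 526.3 and Trim39 between 313.6 and 443.1.

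Trim26, a gene of the major histocompatibility complex region whose product degrades nuclear IRF3, was 139.9, 258.7 and 277.7 in CD8+CX3CR1+, CD8+CX3CR1- and DN DCs and under the floor in CD4+ DCs. CD8+CX3CR1+ DCs were at least 2.51-fold and CD8+CX3CR1- DCs at least 4.64-fold higher than CD4+ DCs, which were at least 4.98-fold lower than DN DCs. The bounds of 4.64-fold and 4.98-fold are the largest differences among the representative probe sets of the family. The other probe set did not share any of the 3, with 49.3, 60.5, 62.8 and 30.4 in CD8+CX3CR1+, CD8+CX3CR1-, CD4+ and DN DCs. Averaged over its probe sets, Trim26 lay under the floor in CD4+ DCs, so its differences from them are bounds. The log2 difference was at least 1.17 between CD8+CX3CR1- and CD4+ DCs and -0.72 or lower between CD4+ and DN DCs. Its neighbours in the annotation on chromosome 17, Trim15, Trim10, Trim40 and Trim31, were under the floor on all arrays apart from Trim10, with 65.9 in DN DCs.

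Trim68, known as an autoantigen related to TRIM21, had 78.6, 181.1, 119.5 and 80.8 in CD8+CX3CR1+, CD8+CX3CR1-, CD4+ and DN DCs. Like Trim35 it was highest in CD8+CX3CR1- DCs, with CD8+CX3CR1+ DCs 2.30-fold lower and CD8+CX3CR1- DCs 2.24-fold higher than DN DCs. It has a single probe set. Trim41 was also highest there, at 326.6, 440.8, 191.2 and 247.2, and CD8+CX3CR1- DCs were 2.31-fold higher than CD4+ DCs. Its further probe set was highest in CD4+ DCs, with 147.2, 157.7, 196.2 and 128.7 in the same order, and gave a log2 difference of -0.32 for that pair.

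Trim65, which activates the RNA sensor MDA5, went the opposite way at 229, 117.9, 233.3 and 160 in CD8+CX3CR1+, CD8+CX3CR1-, CD4+ and DN DCs. Its lowest value was in CD8+CX3CR1- DCs, which were 1.98-fold lower than CD4+ DCs. Trim7, a partner of the glycogen primer glycogenin, had 95.9, 113.2, 57.9 and 227.4 in the same order. It was highest in DN DCs, against which CD8+CX3CR1+ DCs were 2.37-fold, CD8+CX3CR1- DCs 2.01-fold and CD4+ DCs 3.93-fold lower. The CD4+ value lay within that array's own background, whose 90th percentile was 59.9. With its probe sets averaged, Trim7 lay under the floor in DN DCs. The log2 difference of Trim7 between CD4+ and DN DCs was then at least 0.087 in place of -1.97, so its direction rests on 1 probe set. Trim62, which in mouse ubiquitinates the antifungal adaptor CARD9, was 130.9 in CD8+CX3CR1+ DCs, at least 2.35-fold higher than on any other array, where it was under the floor. Averaged over its 3 probe sets Trim62 lay under the floor on every array, so the average gives no fold. Trim43a and Trim60 lay above the floor in CD4+ DCs alone, at 101.9 and 94.2.

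The chromatin cofactors, which carry a PHD finger and a bromodomain, were nearly even at the probe sets that represent them, with 0 of 4 at 2-fold between highest and lowest array, beside 28.4% of all detected genes, a count too small to set the class apart. Trim28, the corepressor of KRAB zinc finger proteins that silences endogenous retroviruses, had 2650.9, 2100.9, 2626.6 and 2122.2 in CD8+CX3CR1+, CD8+CX3CR1-, CD4+ and DN DCs. Its other probe set gave 1575.7, 996.7, 955.7 and 1044.9, with CD8+CX3CR1+ DCs again the highest. Trim33, which acts on SMAD signalling, had 1634.4, 1431.3, 1449.7 and 1266.6 in the same order, and Trim24, a coregulator of nuclear receptors, 379.8, 347.1, 370 and 290.9. Further probe sets of Trim33 and Trim24 went another way. That of Trim33 gave 229.4, 145.3, 202.2 and 333.1 in the same order, highest in DN DCs, and that of Trim24 gave 118.4, 127.3, 160.9 and 131.6, lowest in CD8+CX3CR1+ DCs. No order of the subsets was thus shared by the probe sets of these genes.

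Among 9 detected partners of Trim28 in silencing, 2 were at least 2-fold higher in CD8+CX3CR1+ DCs than in CD8+CX3CR1- DCs and 0 were lower. These were the chromatin remodeller gene Chd3 (839.3 against 267.1) and Atf7ip, which stabilises the histone methyltransferase SETDB1 (705.9 against 336.9). In CD4+ and DN DCs Chd3 had 514.3 and 533.4 and Atf7ip 661.7 and 525.9, so both genes were lowest in CD8+CX3CR1- DCs. In this pair 7.72% of all detected genes passed 2-fold upward and 5.81% downward. The list median was 0.26 (log2), beside 0 for all detected genes. Setdb1 itself had 400.5, 365, 281.2 and 197.3 in CD8+CX3CR1+, CD8+CX3CR1-, CD4+ and DN DCs.

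Of the class without a RING finger, Trim14 was higher in CD4+ and DN DCs. Trim14, which in human cells is an adaptor at mitochondria for the RNA sensing protein MAVS, had signals of 247.5 in CD8+CX3CR1+ DCs, 255.1 in CD8+CX3CR1- DCs, 606.1 in CD4+ DCs and 472.4 in DN DCs. Both CD8+ subsets had lower values than CD4+ and DN DCs, each on 1 array. Against CD4+ DCs CD8+CX3CR1+ DCs were 2.45-fold and CD8+CX3CR1- DCs 2.38-fold lower, and against DN DCs they were 1.91-fold and 1.85-fold lower. Trim44, whose product opposes ubiquitination, was nearly even at 641.4, 825.5, 877.5 and 846.8, and Trim29 passed the floor in DN DCs alone (81.5).

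In a mixed group with RING finger and B-box, placed here in none of the other classes, Trim56 was lowest in CD8+CX3CR1- DCs. Trim56, which in human cells promotes signalling by the DNA-sensing adaptor STING and by TLR3, had 707.8, 358.1, 820.6 and 664.7 in CD8+CX3CR1+, CD8+CX3CR1-, CD4+ and DN DCs, and its other 3 values lay close together. CD8+CX3CR1+ DCs were 1.98-fold higher than CD8+CX3CR1- DCs, which were 2.29-fold lower than CD4+ DCs and 1.86-fold lower than DN DCs. Trim56 has 1 probe set. Its target Sting1 had the same lowest array, with 2928, 549.3, 1704.2 and 1637.1 in that order. Of the 3580 detected genes at least 2-fold between highest and lowest array, 34.6% were also lowest in CD8+CX3CR1- DCs, and a link of these 2 genes was not tested. Trim45 had 75.6, 87.1 and 105.5 in CD8+CX3CR1+, CD8+CX3CR1- and DN DCs and was under the floor in CD4+ DCs. Trim8 and Trim61 did not exceed 91.8 on any array.

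A list of 13 detected genes for RNA sensing and downstream adaptors also held Sting1, the gene of the DNA-sensing adaptor STING. Of the 13, 3 (Ddx58, Ifih1 and Sting1) were at least 2-fold lower in CD8+CX3CR1- DCs than in CD4+ DCs. In this pair 0 were higher, beside 9.11% of all detected genes lower and 6.78% higher. The list median was -0.23 (log2), against -0.01 for all detected genes. Ddx58, which encodes RIG-I, the substrate of TRIM25, had 74.6 in CD8+CX3CR1+ DCs, 63.8 in CD8+CX3CR1- DCs, 379.9 in CD4+ DCs and 293.1 in DN DCs. Ifih1, which encodes MDA5, the substrate of TRIM65, had 1061.5, 601.3, 2196.4 and 1888.6 in the same order. Both sensors were lower in CD8+ DCs, as was Trim14. Mavs was highest in CD8+CX3CR1- DCs, at 211.3 against 95 to 107.4 on the other arrays. Tab2 and Tab3, the substrates of TRIM30a, lay between 1514.6 and 2037.4 and between 344.2 and 380.4.

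The remaining classes held few detected members. Of 7 COS-box genes, which encode proteins that bind microtubules, 2 were detected. Trim36 had 162.3, 89.7, 228.2 and 233.2 in CD8+CX3CR1+, CD8+CX3CR1-, CD4+ and DN DCs, and CD8+CX3CR1- DCs were 2.54-fold lower than CD4+ DCs and 2.60-fold lower than DN DCs. Its further probe set gave 50.9, 74.1, 112.8 and 63.1, so the difference from DN DCs was not shared. Trim46, known from the axon, was above the floor in CD8+CX3CR1- DCs alone (91.5).

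Among NHL-repeat genes Trim3 had 158.3, 126.4 and 112.9 in CD8+CX3CR1+, CD8+CX3CR1- and CD4+ DCs and was under the floor in DN DCs, a difference of at least 2.84-fold, 2.27-fold and 2.03-fold. Trim2 and Trim32 passed the floor in DN DCs alone, at 59.9 and 75.2. Trim37, a MATH-domain ligase of centrosomes and peroxisomes, had 724.2, 513.7, 669.6 and 816 in CD8+CX3CR1+, CD8+CX3CR1-, CD4+ and DN DCs, and all 5 of its probe sets were lower in CD8+CX3CR1- DCs than in CD4+ DCs. Trim59, which is anchored in membranes, lay between 110.7 and 151.9, and Trim23, which carries an ARF domain, passed the floor in CD8+CX3CR1+ DCs (70) and CD4+ DCs (59.3).

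The other detected member was Trim66, with 76.3 in CD4+ DCs. The 17 members under the floor on all 4 arrays were Trim9, Trim13, Trim15, Trim16, Trim17, Trim31, Trim40, Trim42, Trim47, Trim54, Trim63, Trim67, Trim69, Trim71, Trim72, Trim75 and Trim80. They include genes known from skeletal and heart muscle (Trim54, Trim63, Trim72) and from neurons (Trim9, Trim67). For the 27 members with a single probe set, agreement could not be checked.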

How the data were processed

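The authors deposited one intensity per probe set and array, a MAS5 signal according to the submitters' processing notes, which name no version. RNA was labelled with biotin, per the labels. The trimmed mean was 150.0 on all 4 arrays, as after MAS5's scaling of whole arrays.

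Of 45101 probe sets, 34945 have 1 gene symbol in the platform annotation, 932 have several and 9160 have none, besides 64 controls. The 58 TRIM symbols were matched through Entrez identifiers to RefSeq genes of GRCm38.p6, and 0 changed. No source used here names a genome build for the array annotation. Among a gene's probe sets the one brightest on average (mean log2 signal) stands for it, and signals below the floor were set to the floor. Every member was accounted for, and all 4 values were given for members with at least 2-fold between highest and lowest array and for those with the brightest probe sets. Other named genes come from gene lists, and some list members and Trim30a, Trim34a and Trim65, just under 2-fold, were named after their values were seen. The members and lists were chosen with earlier results of these data known. The 6 pairs were compared without tests, since each subset has 1 array. The steps were tested on simulated data. The number of arrays limits the precision. Promoter sequences are RefSeq's. Computations used Python 3.11.15, numpy 2.4.6 and pandas 2.3.3.

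As alternatives, arrays were quantile normalized or given equal medians, the floor was set at the 75th or 95th percentile or dropped (pseudocount of 1), probe sets were averaged, and those marked _x, _s or _a were left out. Leaving out each array in turn was added after the data were seen.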

Additional observations from a re-analysis of the deposited data

How the results depend on the processing

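The number of TRIM genes at least 2-fold between highest and lowest array, 12, was 11 to 14 with another scaling, a floor at the 95th percentile or probe sets averaged. It was 20 with the floor at the 75th percentile, 39 without a floor and 7 without _x, _s and _a probe sets. The share of all detected genes was 36.1%, 66.1% and 28.0% in the same order. Without a floor every named gene counts as detected, so the 39 are out of all 58 members and not out of 41. The number of detected members can change with the other settings too. Leaving out each array in turn gave 7 to 11. Equal median scaling moved the median of all detected genes to 0.18, 0.15 and -0.12 (log2) in the pairs CD8+CX3CR1+ minus CD4+, CD8+CX3CR1- minus CD4+ and CD4+ minus DN. The pairs are given below in the order CD8+CX3CR1+ against CD8+CX3CR1-, CD4+ and DN, CD8+CX3CR1- against CD4+ and DN, and CD4+ against DN. Without a floor the counts at 2-fold, among all 58 members, were 21, 17, 16, 27, 25 and 21. The shares of all genes were 36.2%, 34.9%, 31%, 40.3%, 36.2% and 34.1%. At 4-fold the counts were 7, 3, 3, 8, 9 and 10. Shares of all genes at 4-fold were not computed for these alternative settings. With the floor at the 75th percentile the counts that moved were 8 (CD8+CX3CR1+ and CD4+), 13 (CD8+CX3CR1- and CD4+), 8 (CD8+CX3CR1- and DN) and 10 (CD4+ and DN) at 2-fold, and 1 at 4-fold (CD8+CX3CR1+ and DN). Beside these 2-fold counts stood 14.1%, 20%, 13.7% and 13% of all detected genes, in the same order. With the floor at the 95th percentile 2 passed 2-fold between CD8+CX3CR1+ and CD4+ (8.12% of all detected genes), and Trim26 no longer passed 4-fold (0 in both pairs). The same 0 at 4-fold came from averaging probe sets and from leaving out _x, _s and _a probe sets. Leaving out those probe sets left 2, 1, 4 and 3 at 2-fold for CD8+CX3CR1+ against CD4+ and DN, CD8+CX3CR1- against CD4+, and CD4+ against DN. The shares of all detected genes were 9.1%, 5.9%, 15.6% and 7.71%. With equal median scaling 3 passed 2-fold (8.58% of all detected genes) and 2 passed 4-fold between CD4+ and DN. Of the 28 differences of at least 2-fold, 25 stayed at 2-fold with quantile normalization, 21 with equal medians, 22 with the floor at the 95th percentile and 28 with the lower floor or none. Only 14 did so when probe sets were averaged. Without _x, _s and _a probe sets 21 of the 28 could be computed, and 17 of these stayed at 2-fold. Of these differences, 1 turned when probe sets were averaged (Trim7, CD4+ minus DN, at least 0.087) and 1 without _x, _s and _a probe sets (Trim41, CD8+CX3CR1- minus CD4+, -0.32), since the gene was then represented by other probe sets. The cause of the other changes was not tested, beyond the signals near the floor that a lower floor lets in. The 7 differences shared by every further probe set were 5 to 8 with another floor or scaling. No paired analysis was possible because each subset has 1 array. Signals near the floor cannot be ordered, which limits the 16 members above it on 1 to 3 arrays.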

Other observations

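The family also includes tripartite motif genes without a Trim symbol. Of 4 of them, 1 passed 2-fold between highest and lowest array, beside 28.4% of all detected genes, so the count is not set apart. Mefv, which encodes pyrin, the sensor of an inflammasome, had 467.2 in CD8+CX3CR1+ DCs, 793.1 in CD8+CX3CR1- DCs, 2108.8 in CD4+ DCs and 1418.6 in DN DCs. CD8+ DCs were lower than the other 2, and CD8+CX3CR1+ DCs were 4.51-fold lower than CD4+ DCs. In that pair 0.769% of all detected genes passed 4-fold. Pml, which forms nuclear bodies, had 148.2, 113.6, 87.6 and 92.9 in the same order. Mid1, a microtubule-bound ligase, lay between 82 and 124, and Mid2 between 68.5 and 79.7 on the arrays where it passed the floor, with 18.5 in DN DCs.

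A further 5 probe sets are annotated to a TRIM gene together with another gene and were named for neither. One annotated to Trim30d and Trim30a gave 199.8, 440.4, 300.6 and 268.2 in CD8+CX3CR1+, CD8+CX3CR1-, CD4+ and DN DCs, with its highest value in CD8+CX3CR1- DCs, as for both probe sets of Trim30a alone. One annotated to Trim34b and Trim34a gave 152.5, 150.5, 293.8 and 244.7, with CD4+ DCs highest, as for Trim34a, and the other passed the floor in CD4+ DCs alone (79.3). One annotated to Trim30b and a predicted gene gave 125.9, 302.2, 333.5 and 280.2. One annotated to Trim17 and a histone gene gave 751.9, 943.1, 1148 and 577.9, while the probe set that represents Trim17 lay under the floor on every array and its other probe set did not exceed 63.1.

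Of the conjugating enzymes that work with E3 ligases, 7 of 8 were detected. Ube2n, which with Ube2v1 builds chains linked through lysine 63, had 90.9, 248.8, 157.9 and 202.8 in CD8+CX3CR1+, CD8+CX3CR1-, CD4+ and DN DCs, and was thus lowest in CD8+CX3CR1+ DCs. Ube2d3, with 2034.4, 1888, 2111.6 and 2430.9, and Ube2v1, with 1513.9, 1659.2, 1430.8 and 1425.4, were nearly even. Ube2l6, the enzyme that conjugates ISG15, was under the floor on all 4 arrays.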
